A study of Mus musculus with 20 samples.

Results

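The genes of cholesterol and fatty acid synthesis were followed through the cells of sham and injured mouse spinal cord. They are 31 enzymes and regulators, chosen by gene symbol for their place in these pathways, and all 31 were among the 16003 genes of the deposited single-cell count table. By role they were 7 genes of the mevalonate arm (Acat2, Hmgcs1, Mvk, Pmvk, Mvd, Idi1 and Fdps), 11 of the squalene and sterol arm (Fdft1, Sqle, Lss, Cyp51, Tm7sf2, Msmo1, Nsdhl, Hsd17b7, Ebp, Sc5d and Dhcr7) and 4 for regulation and sterol transport (Insig1, Srebf1, Srebf2 and Stard4). The other members were 6 genes for making, elongating and desaturating fatty acids (Acly, Acaca, Fasn, Elovl6, Scd1 and Scd2) and 3 for polyunsaturated fatty acids (Elovl5, Fads1 and Fads2).

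Cells build cholesterol from acetyl-CoA through mevalonate, isoprenoids, squalene and lanosterol, and build fatty acids from the same acetyl-CoA through malonyl-CoA. Transcription of both routes is driven by SREBP proteins, of which SREBP2, from Srebf2, acts mainly on cholesterol genes and SREBP1, from Srebf1, mainly on fatty acid genes, while INSIG1 holds the SREBPs in the endoplasmic reticulum when sterols are plentiful. Blood cholesterol hardly crosses into the central nervous system, so its cells make their own, with astrocytes supplying neurons through apolipoprotein E and oligodendrocytes making large amounts for myelin.

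The study asked what microglia do after spinal cord injury. Female C57BL/6J mice, 8 to 10 weeks old, were fed vehicle chow or chow with 1200 ppm PLX5622, which inhibits the receptor for colony stimulating factor 1 and depletes microglia, from 2 weeks before surgery. This dose is that of the labels. The study's methods give 1200 mg per kg of chow, which is the same amount, and beside it another figure in ppm. Surgery was a laminectomy at the ninth thoracic level (sham) or a contusion at that level, and 1 cm of cord was taken at 7 or 28 days post-injury (dpi). The sham labels of either diet name both 7 and 28 days. There were 6 single-cell libraries, for sham, 7 dpi and 28 dpi on either chow, and each pooled the cords of 3 to 4 mice. Blood was not flushed out before dissociation, and myelin and dead cells were removed from the suspension. The 14 bulk samples were not analysed here.

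The libraries held 492 to 9846 cells and 2606149 to 35694246 unique molecular identifiers (UMIs), each UMI standing for 1 captured transcript, 21016 cells and 81305944 UMIs in all. The authors deposited 14 cluster numbers without names, and each cell type name stands for a cluster named here from its marker genes, so astrocytes means astrocyte-like. The cluster called monocytes also had genes of MHC class II among its 10 leading genes, and 3 of its 6 markers peaked elsewhere. Any pair of libraries shared at most 21 cell barcodes. Levels are UMIs of a gene per 1000000 UMIs (CPM) of all cells of a cluster in a library, and values in parentheses are exact 95% intervals. With 1 library per condition there was no replicate check and no test, and the intervals cover counting error only. Exons of Tm7sf2 and Fdps overlap those of Vps51 and Gm43738 on the same strand, so their counts are less certain. In pooled UMIs, a lower level in each cell and fewer expressing cells give the same CPM.

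To show what lies just before the start of these genes, the 250 bases upstream are printed for 2 genes of the cholesterol arms and 2 of fatty acid synthesis, from RefSeq sequence of GRCm38.p6, the release of the build that the authors named. Each runs 5′ to 3′ on the strand of its gene, and capitals mark TCACNCCAC (a form of the sterol regulatory element that SREBPs bind), CCAAT (the NF-Y box) and GGGCGG (the Sp1 box) on either strand. Hmgcs1, HMG-CoA synthase, acts early in the mevalonate arm and lies at chr13:119690101-119690350, plus strand, in this window. Nsdhl, which takes part in removing methyl groups from the sterol ring, has its window at chrX:72918271-72918520, plus strand. Fasn, fatty acid synthase, has it at chr11:120824548-120824797, minus strand, and Acly, which releases acetyl-CoA from citrate, at chr11:100528001-100528250, minus strand. Each window ends at the base before the start of transcription in the table.
Hmgcs1: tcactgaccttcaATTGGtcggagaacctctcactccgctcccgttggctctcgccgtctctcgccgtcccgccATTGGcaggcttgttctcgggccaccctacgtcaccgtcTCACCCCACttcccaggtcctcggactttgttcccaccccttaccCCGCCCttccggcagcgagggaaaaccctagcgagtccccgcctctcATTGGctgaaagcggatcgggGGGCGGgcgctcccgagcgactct
Nsdhl: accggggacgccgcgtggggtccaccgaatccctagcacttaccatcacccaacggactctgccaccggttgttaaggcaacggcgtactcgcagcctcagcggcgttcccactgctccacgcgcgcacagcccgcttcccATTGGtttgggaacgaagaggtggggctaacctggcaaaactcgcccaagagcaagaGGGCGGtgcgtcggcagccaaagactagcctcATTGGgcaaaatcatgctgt
Fasn: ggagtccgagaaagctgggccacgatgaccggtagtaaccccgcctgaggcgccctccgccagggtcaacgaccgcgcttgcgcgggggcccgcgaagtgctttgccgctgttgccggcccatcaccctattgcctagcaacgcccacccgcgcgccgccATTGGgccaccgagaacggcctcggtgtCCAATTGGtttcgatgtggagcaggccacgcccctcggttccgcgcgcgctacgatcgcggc
Acly: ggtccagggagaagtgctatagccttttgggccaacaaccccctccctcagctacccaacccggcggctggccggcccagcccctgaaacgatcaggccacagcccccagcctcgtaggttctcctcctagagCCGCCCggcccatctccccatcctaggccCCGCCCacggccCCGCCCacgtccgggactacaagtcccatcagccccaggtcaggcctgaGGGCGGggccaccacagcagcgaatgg

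The table held such windows for 24 members, at 29 starts, and not for Fdps, Fdft1, Sqle, Stard4, Scd1, Scd2 and Fads1. CCAAT was found for 19 of the 24 members (79.2%), against 37.5% of all 27025 genes in the table. GGGCGG was also found for 19 members (79.2%), against 35.4% of all genes. TCACNCCAC was found for 1 member, Hmgcs1, against 1.22% of all genes. CCAAT was present in the windows of Hmgcs1, Nsdhl and Fasn and absent from that of Acly, and GGGCGG was present in those of Hmgcs1, Nsdhl and Acly and absent from that of Fasn. These are letters in a window and not measured binding.

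Over the whole table the 31 genes held 55641 UMIs, 684 CPM. Scd2, the brain's main stearoyl-CoA desaturase, which turns saturated into monounsaturated fatty acids, held 13272 of them. Ebp, a sterol isomerase late in the pathway, held 5670, Acly 4621 and Msmo1, a sterol methyl oxidase, 3406. Elovl5, an elongase of polyunsaturated fatty acids, held 2988 and Hmgcs1 2075. These 6 genes made up 57.6% of the UMIs of the list, so sums over the list follow them most.

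In the vehicle sham library the astrocytes had the highest level of the list. The 31 genes together reached 5726 CPM (5560 to 5897) in 310 astrocytes and 1625 CPM (1502 to 1756) in 76 ependymal cells, the ciliated cells that line the central canal. Among the 9 clusters with at least 50 cells in this library, endothelial cells followed with 822 CPM, then monocyte-derived macrophages (MDMs) with 681, monocytes with 652, T and NK cells with 594, microglia with 506, and neutrophils and erythroid cells with 240 CPM each. The smaller clusters held 22 to 41 cells each. Of these, oligodendrocyte lineage cells were at 3922 CPM (3495 to 4387), leptomeningeal cells at 1112, B cells at 1051, the cluster of pericytes and fibroblasts at 1034 and proliferating cells at 601 CPM. The level in astrocytes was 11.3 times that in microglia and 3.52 times that in ependymal cells. Astrocytes were 17.3% of the cells of this library and held 48.9% of the UMIs of the list.

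**Figure D1:**
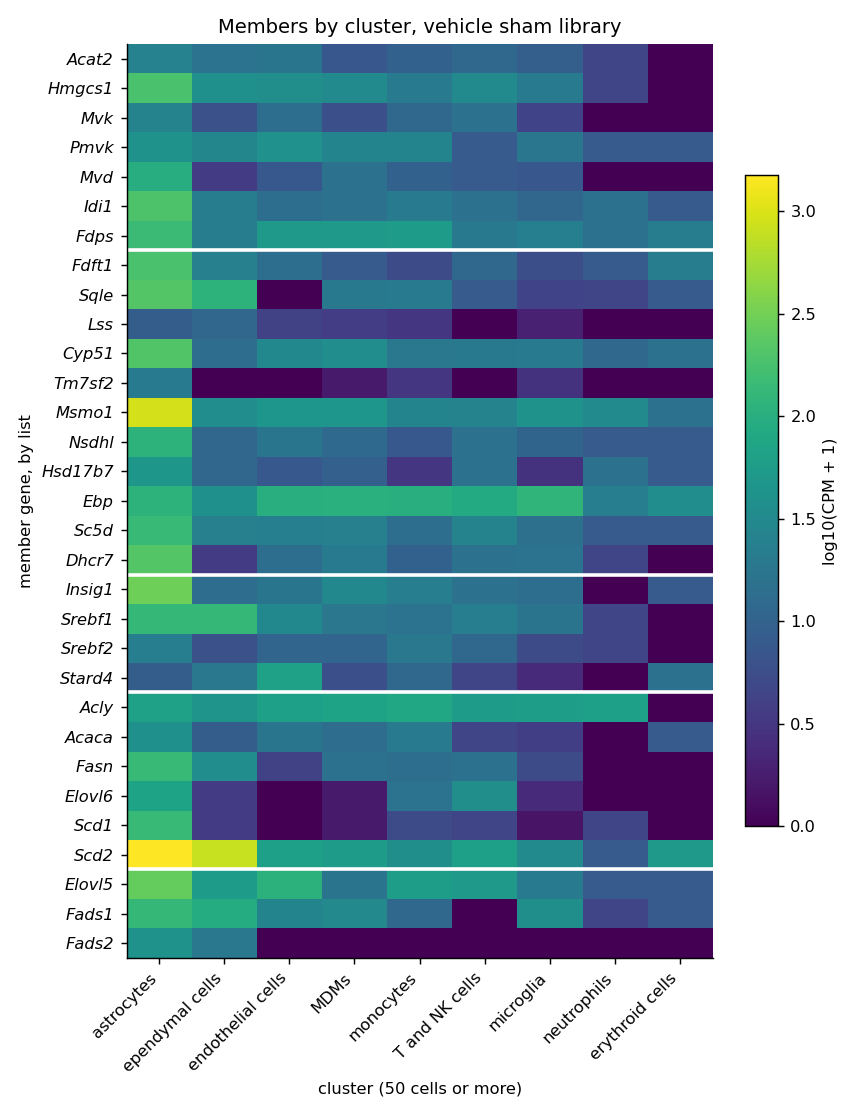
Level of each of the 31 genes (rows, grouped by role between white lines) in the 9 clusters with 50 cells or more of the vehicle sham library (columns, ordered by the summed level), coloured by log10(CPM + 1). The astrocyte column is the brightest for most genes, and Ebp and Acly are spread over most clusters.

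Of the 9 larger clusters, astrocytes had the highest level for 27 of the 31 members. For 16 of these the interval lay wholly above that of the second cluster, and for the other 11 the first and second clusters could not be told apart by counting error. Scd1, a second stearoyl-CoA desaturase, had the largest gap between the first and second of these 9 clusters. It was at 139.8 CPM (115 to 169) in astrocytes and 4.39 CPM (0.532 to 15.9) in monocytes, on 2 UMIs there, a ratio of 31.9. Smaller clusters lay above or near the astrocytes for this gene, with 409 CPM (276 to 585) in 23 B cells and 129.7 CPM (87.5 to 185) in 41 cells of the pericyte and fibroblast cluster. Msmo1 was at 941 CPM (874 to 1012) in astrocytes and 45.8 CPM (35.4 to 58.4) in MDMs. Insig1 was at 296 CPM in astrocytes and 29.6 CPM in MDMs, and Dhcr7, the last enzyme of one route to cholesterol, at 209 and 19.0 CPM in the same clusters.

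A few members had another order. Scd2 was high in both glial clusters, with 1494 CPM (1410 to 1582) in astrocytes and 799 CPM (713 to 892) in ependymal cells. Srebf1 was at 129.5 CPM (106 to 157) in astrocytes and 129.3 CPM (96.3 to 170.0) in ependymal cells and did not differ between them beyond counting error. Sqle, squalene epoxidase, an early rate-limiting step, was at 213 CPM in astrocytes and 112 CPM in ependymal cells. Stard4, a carrier of cholesterol between membranes, peaked in endothelial cells at 64.7 CPM (39.5 to 99.9), above the 17.7 CPM (7.14 to 36.6) of ependymal cells.

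Ebp and Acly were the members spread most evenly. Ebp was at 118 CPM (104 to 134) in microglia and 110 CPM (88.2 to 136) in astrocytes. Acly was at 76.8 CPM (53.5 to 107) in monocytes and 69.1 CPM (56.1 to 84.2) in MDMs, and neither pair could be told apart. Lss, lanosterol synthase, was the remaining exception, at 10.1 CPM on few UMIs in ependymal cells and 7.70 CPM in astrocytes.

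The cluster of the oligodendrocyte lineage held 255 cells in all libraries, 22 of them in the vehicle sham library, and came second to astrocytes over all libraries with 2539 CPM (2429 to 2652) against 5196 CPM (5101 to 5291). Its cells were led by genes of progenitors, with Olig1 at 2853 CPM and Pdgfra at 811 CPM, while the genes of mature myelinating cells were low, with Mag at 15.1, Mog at 3.77 and Mobp at 1.26 CPM. Over all libraries this cluster had the highest level of 6 members, among them Elovl6, an elongase of saturated fatty acids, with 111 CPM (88.7 to 136) against 55.0 CPM (45.6 to 65.6) in astrocytes, the one of the 6 whose interval lay apart from the second cluster. Mature oligodendrocytes, the cells known for making myelin cholesterol, were thus hardly represented.

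The astrocytes of injured cords held a smaller part of the list. Their share of its UMIs was 48.9% in the vehicle sham library, 3.81% at 7 dpi and 8.70% at 28 dpi, and 61.8%, 14.2% and 24.5% in the PLX5622 libraries in the same order. These shares follow the number of astrocytes as well as their RNA, and vehicle libraries held 310, 69 and 245 of them and PLX5622 libraries 204, 39 and 107.

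Within the astrocyte cluster, the sum of the cholesterol genes was far lower in injured than in sham cords and that of the fatty acid genes was not. The 18 genes of the mevalonate and of the squalene and sterol arms summed to 2891 CPM (2773 to 3013) in vehicle sham, 544 CPM (443 to 662) at 7 dpi and 1009 CPM (915 to 1111) at 28 dpi. The 9 genes of fatty acid synthesis and desaturation summed to 2380 CPM (2273 to 2491), 2912 CPM (2670 to 3169) and 2195 CPM (2055 to 2343). Scd2 alone held 1165 of the 1856 UMIs of this sum in vehicle sham, 384 of 535 at 7 dpi and 632 of 909 at 28 dpi. The sum thus followed Scd2 most, and single fatty acid genes were divided. In PLX5622 libraries the cholesterol genes were at 3164 CPM (3021 to 3311) in sham, 1038 CPM (852 to 1252) at 7 dpi and 1524 CPM (1334 to 1734) at 28 dpi.
In both diets the cholesterol genes were lower in both injured libraries than in sham, with no overlap of the intervals. The fatty acid genes of PLX5622 astrocytes were at 2452 CPM (2327 to 2582), 3323 CPM (2984 to 3691) and 3464 CPM (3174 to 3773), higher in both injured libraries than in sham.

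Myeloid RNA moved with these values. A list of 10 myeloid genes, with the C1q genes and Tyrobp among them, summed to 1598 CPM in vehicle sham astrocytes, 21197 at 7 dpi and 20268 at 28 dpi, and to 93.9, 2171 and 924 CPM under PLX5622. The 6 astrocyte markers summed to 29453, 18574 and 18911 CPM in the vehicle libraries. The same sums were therefore taken over astrocytes with under 3 UMIs of the myeloid list, 298 of 310 cells in vehicle sham, 29 of 69 at 7 dpi and 126 of 245 at 28 dpi, with medians of 1995, 1198 and 994.5 UMIs per cell.

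In these cells the cholesterol genes were at 2948 CPM (2826 to 3074) in vehicle sham, 887 CPM (624 to 1222) at 7 dpi and 1585 CPM (1381 to 1811) at 28 dpi. The fatty acid genes were at 2431 CPM (2320 to 2546), 5872 CPM (5160 to 6655) and 4645 CPM (4291 to 5021). The sum of the cholesterol genes was thus lower than in sham with and without the myeloid-rich cells, and that of the fatty acid genes, close to sham at 28 dpi over the whole cluster, lay above it.
Astrocytes of the PLX5622 libraries with under 3 myeloid UMIs, 199 of 204, 35 of 39 and 103 of 107 cells, gave 3164, 1105 and 1545 CPM for the cholesterol genes and 2458, 3482 and 3470 CPM for the fatty acid genes. These differed little from the whole PLX5622 cluster.

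**Figure D2:**
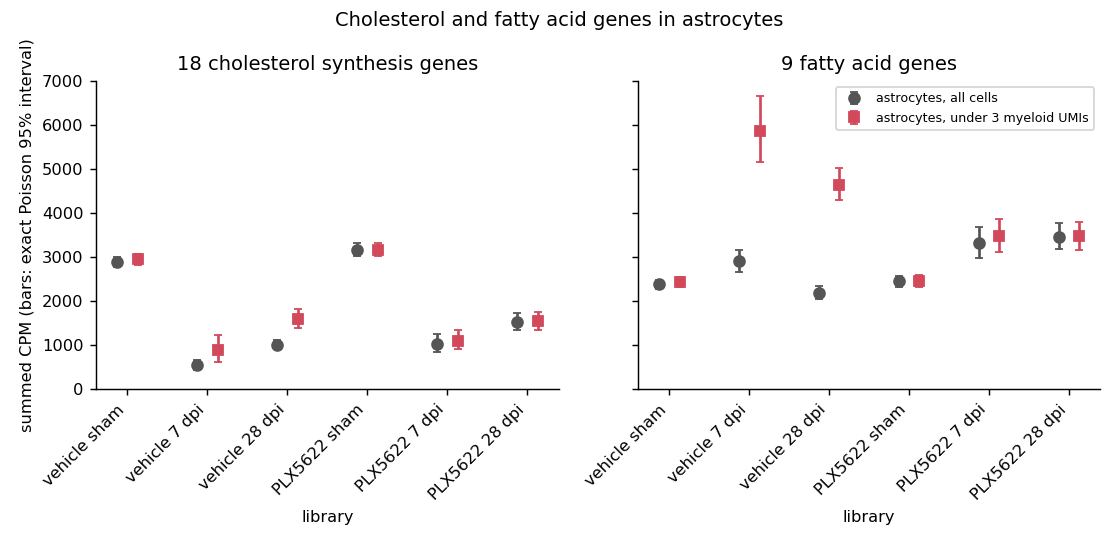
Summed CPM of the 18 cholesterol genes (left) and the 9 fatty acid genes (right) in astrocytes of the 6 libraries, for all cells (grey circles) and for cells with under 3 myeloid UMIs (red squares), with exact Poisson 95% intervals as bars. Cholesterol genes are lower in all 4 injured libraries than in the sham library of the same diet, and in vehicle libraries the fatty acid genes separate from sham when the myeloid-rich cells are left out.

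The share of cholesterol genes among the UMIs of both groups of genes does not depend on the total of the cluster. In vehicle astrocytes the sham share was 54.8% (53.3 to 56.4), that of 7 dpi 15.7% (13.001 to 18.8) and that of 28 dpi 31.5% (29.0 to 34.1). Under PLX5622 it was 56.3% (54.6 to 58.0), 23.8% (20.0 to 28.0) and 30.6% (27.3 to 34.0). At 28 dpi the intervals of both diets overlapped, and at 7 dpi they did not. In cells with under 3 myeloid UMIs and thinned to 1000 UMIs each, the vehicle shares were 53.8% (50.8 to 56.8), 15.3% (9.58 to 22.6) and 25.9% (21.7 to 30.4). They rest on 218, 19 and 62 cells, with 20 cholesterol UMIs at 7 dpi. Without Scd2, the most abundant of the fatty acid genes, the vehicle shares were 76.5% (75.0 to 78.1), 39.8% (33.7 to 46.2) and 60.1% (56.4 to 63.8).

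A lower cholesterol share after injury was also found in several other clusters. MDMs of vehicle sham, 7 dpi and 28 dpi were at 67.8% (64.6 to 70.9), 45.6% (44.5 to 46.7) and 45.6% (44.4 to 46.9). Microglia were at 67.0% (64.0 to 70.0), 51.3% (49.4 to 53.3) and 51.6% (49.98 to 53.3). Monocytes went from 59.9% to 45.6% and 46.4%, and T and NK cells from 58.9% to 47.6% and 46.3%, the latter with overlapping intervals.
In ependymal cells as a whole the intervals overlapped, with 27.8% (24.2 to 31.6), 26.4% (23.5 to 29.5) and 28.4% (25.6 to 31.5). The myeloid list in this cluster was at 119, 6898 and 7380 CPM. Ependymal cells with under 3 myeloid UMIs numbered 73, 73 and 137. Their shares were 28.1% (24.4 to 32.0), 19.1% (14.7 to 24.3) and 28.9% (24.4 to 33.8). In these cells the 7 dpi interval, on 53 cholesterol UMIs, lay just below that of sham. Neutrophils were at 64.6%, 60.1% and 64.8%, again with overlapping intervals. Endothelial cells had 60.4% (53.5 to 66.9) in vehicle sham and 51.0% (47.2 to 54.7) at 7 dpi, which overlap, and 68.7%, 64.0% and 61.2% under PLX5622. The vehicle comparisons of all clusters share the same sham library.

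**Figure D3:**
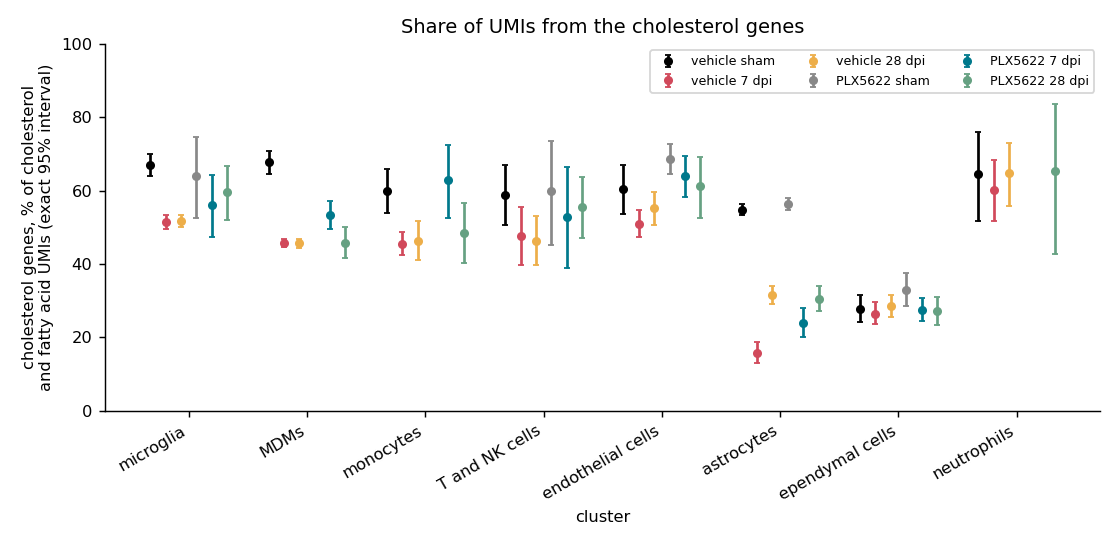
Percent of the UMIs of cholesterol and fatty acid genes that came from the 18 cholesterol genes (vertical axis) in 8 clusters (horizontal axis) and up to 6 libraries (colours), with exact 95% intervals as bars and libraries with fewer than 20 cells of a cluster left out. All cells of a cluster are counted, with myeloid-rich ones included. Astrocytes are at 54.8% in vehicle sham and at 15.7% and 31.5% in the injured vehicle libraries, and vehicle ependymal cells lie between 26.4% and 28.4%.

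Many members of the cholesterol pathway were lower in astrocytes of injured cords. Members with few UMIs did not all follow, since Pmvk was at 42.3 CPM in vehicle sham and 43.5 CPM at 7 dpi, and Tm7sf2 at 19.2 CPM in vehicle sham and 24.1 CPM at 28 dpi. Under PLX5622 Ebp was at 105.8 CPM in sham and 105.6 CPM at 28 dpi. Msmo1 was at 941 CPM in vehicle sham, 87.1 CPM (49.8 to 141) at 7 dpi and 229 CPM (186 to 280) at 28 dpi, and at 846, 267 and 317 CPM under PLX5622. Insig1 was at 296, 27.2 and 65.2 CPM, and at 408, 133 and 119 CPM under PLX5622. For both genes the level was lower in both injured libraries than in the sham library of that diet. Dhcr7 was at 209, 10.9 and 67.6 CPM in vehicle libraries and at 241, 57.1 and 145 CPM in PLX5622 libraries. Sc5d, the sterol desaturase that acts before Dhcr7, was at 138.5, 10.9 and 36.2 CPM in vehicle libraries and at 157, 57.1 and 52.8 CPM in PLX5622 libraries. Sqle was at 213, 70.7 and 62.8 CPM in vehicle libraries and at 167, 57.1 and 72.6 CPM in PLX5622 libraries. Hmgcs1 kept more of its level, with 183, 70.7 and 99.0 CPM in vehicle libraries and 275, 152 and 211 CPM in PLX5622 libraries.

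The fatty acid members were divided. Scd2 was at 1494 CPM in vehicle sham, 2090 CPM (1886 to 2310) at 7 dpi and 1526 CPM (1410 to 1650) at 28 dpi, and at 1480, 2219 and 2316 CPM under PLX5622. Scd1 was at 139.8, 239 and 155 CPM, and at 147, 238 and 251 CPM under PLX5622. Scd2 was higher at 7 dpi than in sham in both diets, and at 28 dpi under PLX5622, with no overlap of the intervals. For Scd1 the intervals of sham and 7 dpi lay apart in vehicle libraries and overlapped under PLX5622. Fads1, which makes arachidonic and eicosapentaenoic acid, was at 128, 207 and 116 CPM in vehicle libraries and at 169, 248 and 323 CPM in PLX5622 libraries. Srebf1 was at 129.5, 114 and 104 CPM in vehicle libraries and at 183, 248 and 323 CPM in PLX5622 libraries. Of the 9 fatty acid genes, 4 were lower than in sham at both times in vehicle libraries. Fasn was at 136, 49.0 and 82.1 CPM, Elovl6 at 69.3, 10.9 and 31.4 CPM, Elovl5 at 268, 120 and 169 CPM, and Fads2, the first desaturase of polyunsaturated fatty acids, at 41.0, 21.8 and 16.9 CPM. The interval of Fads2 at 7 dpi overlapped that of sham. Under PLX5622, sham and 28 dpi were at 148 and 172 CPM for Fasn and at 282 and 264 CPM for Elovl5. The intervals of both ratios held 0. Elovl6 was at 85.3 and 13.2 CPM and Fads2 at 41.0 and 19.8 CPM, on 2 and 3 UMIs at 28 dpi. Fasn at 7 dpi was also not lower in vehicle astrocytes with under 3 myeloid UMIs, as given further below.

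At 28 dpi over sham in vehicle astrocytes, 25 members passed the filter on low counts, which asks for at least 10 expected UMIs in the smaller of the pair of clusters. Of these 25, 14 were at least 2-fold lower and 0 at least 2-fold higher, against 15.7% lower and 12.3% higher among all genes that passed. The 3 lowest were Insig1 with a log2 ratio of -2.18 (-2.82 to -1.61), Msmo1 with -2.04 (-2.36 to -1.73) and Sc5d with -1.94 (-2.82 to -1.15), and the 3 highest Acaca, acetyl-CoA carboxylase, with 0.40 (-0.48 to 1.25), Scd1 with 0.15 (-0.32 to 0.60) and Scd2 with 0.03 (-0.11 to 0.17). The median over all genes was -0.24, and with edgeR's TMM or DESeq2's factors, which remove that shift, 11 members were lower and 0 higher. The share of all genes with these factors is not given. By list, 8 of 9 tested members of the squalene and sterol arm were at least 2-fold lower, with Ebp as the ninth, and 3 of 5 of the mevalonate arm, against 1 of 6 for fatty acid synthesis.

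Astrocytes with under 3 myeloid UMIs gave the same split with another balance. At 28 dpi over sham, 7 of 20 tested members were at least 2-fold lower and 2 at least 2-fold higher, against 4.09% lower and 8.45% higher among all genes tested in these cells. The 2 higher ones were Scd1, with a log2 ratio of 1.25 (0.72 to 1.76), and Scd2, with 1.12 (0.95 to 1.27), and Msmo1 was at -1.19 (-1.60 to -0.80) and Insig1 at -1.47 (-2.33 to -0.71). The cholesterol genes were 1.86-fold lower as a sum, with a log2 ratio of -0.90 (-1.10 to -0.69), and the fatty acid genes 1.91-fold higher, with 0.93 (0.80 to 1.07). All 31 genes together had a log2 ratio of 0.17 (0.06 to 0.27) in these cells and of -0.75 (-0.84 to -0.67) in the whole cluster, so the direction of the sum over all 31 genes depended on the myeloid-rich cells.

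At 7 dpi over sham, 15 of 21 tested members were at least 2-fold lower in vehicle astrocytes and 0 at least 2-fold higher, against 23.2% lower and 17.7% higher among all genes. Nsdhl had 86 UMIs in sham against 1 after injury, for a log2 ratio of -4.34 (-9.66 to -1.83), Dhcr7 163 and 2 UMIs, a ratio of -4.26 (-7.32 to -2.39), and Idi1, which makes the building block of isoprenoids, 149 and 2 UMIs, a ratio of -4.13 (-7.19 to -2.26). The highest were Acaca with 0.88 (-0.18 to 1.86), Scd1 with 0.78 (0.24 to 1.29) and Fads1 with 0.69 (0.11 to 1.24). The 7 dpi library held 69 astrocytes, 29 of them with under 3 myeloid UMIs, and in those 29 cells 4 members passed the filter, too few to count.

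Under PLX5622, where few astrocytes carried myeloid UMIs, 28 dpi over sham gave 10 of 19 tested members at least 2-fold lower and 0 at least 2-fold higher, against 4.53% lower and 8.6% higher among all genes. The lowest were Insig1 with -1.78 (-2.56 to -1.09), Fdps, which makes farnesyl pyrophosphate, with -1.57 (-2.67 to -0.64), and Sc5d with -1.57 (-2.83 to -0.53). The highest were Fads1 with 0.94 (0.41 to 1.44), Srebf1 with 0.82 (0.31 to 1.33) and Scd1 with 0.77 (0.18 to 1.34). The median over all genes was 0.14. All 31 genes together were at 5456 CPM at 28 dpi and 6261 CPM in sham, a log2 ratio of -0.20 (-0.31 to -0.09).

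**Figure D4:**
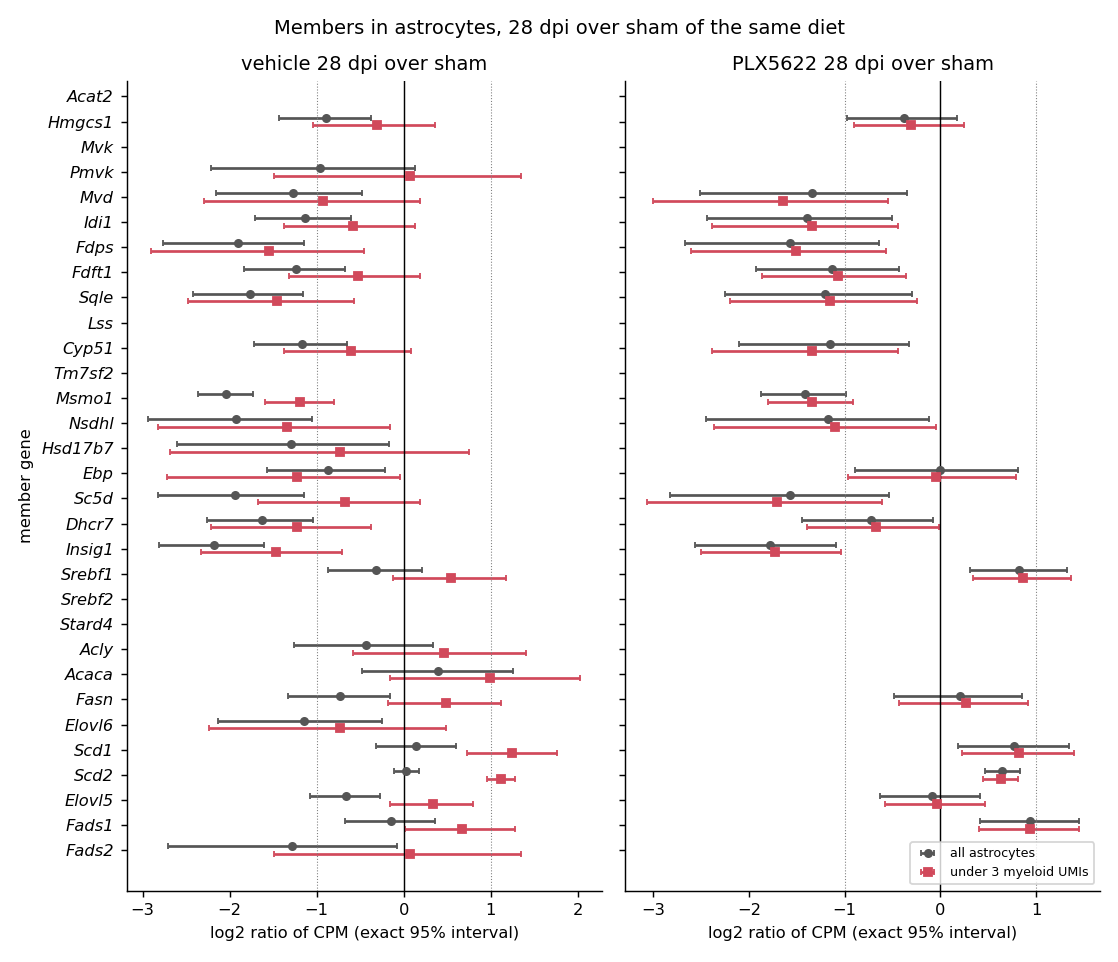
Log2 ratio of CPM, 28 dpi over sham, for the members that passed the filter (vertical axis) in vehicle (left) and PLX5622 (right) astrocytes, for all cells (grey circles) and cells with under 3 myeloid UMIs (red squares), with exact 95% intervals as bars and dotted lines at 2-fold. Sterol genes from Fdps to Insig1 lie left of 0 in both panels except Ebp under PLX5622, and Scd1, Scd2 and Fads1 lie right of 0 except for Fads1 in all vehicle cells.

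Single cells of the astrocyte cluster were thinned to 1000 UMIs to compare shares of cells with a UMI, which left out 85 of 310 cells in vehicle sham and 98 of 245 at 28 dpi. In vehicle libraries, Msmo1 was found in 60.0% (53.3 to 66.5) of sham astrocytes, 9.80% (3.26 to 21.4) of those of 7 dpi and 25.2% (18.4 to 33.0) of those of 28 dpi. Under PLX5622 it was found in 49.6%, 33.3% and 28.6% of them, with overlapping intervals of 40.6 to 58.6 for the first and 17.3 to 42.2 for the last. Scd2 was found in 74.2%, 62.7% and 55.8% in vehicle libraries and in 70.1%, 75.0% and 91.1% in PLX5622 libraries. Before thinning, Msmo1 was found in 66.5%, 15.9% and 29.8% of vehicle astrocytes, whose medians were 2024, 2057 and 1149 UMIs, and Scd2 in 82.6%, 81.2% and 71.0%. In T and NK cells of vehicle sham, with a median of 3669 UMIs, Msmo1 and Scd2 were each found in 1.64% of thinned cells and in 10.4% and 16.4% before thinning.

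Between the diets, the astrocytes of sham cords were close. All 31 genes together were at 6261 CPM under PLX5622 and 5726 CPM under vehicle, a log2 ratio of 0.13 (0.07 to 0.19), which became -0.03 when each cell was weighted alike. Of 29 tested members 2 were at least 2-fold higher and 0 at least 2-fold lower, against 2.9% higher and 2.3% lower among all genes. They were Tm7sf2, a sterol reductase, with 28 and 15 UMIs and a log2 ratio of 1.31 (0.36 to 2.32), and Srebf2, with 26 and 17 UMIs and a ratio of 1.03 (0.09 to 2.00). The third highest was Pmvk, phosphomevalonate kinase, with 0.89 (0.22 to 1.58), and the lowest were Sqle with -0.35 (-0.72 to 0.02), Acaca with -0.17 and Msmo1 with -0.15 (-0.32 to 0.01). The mevalonate arm as a sum was at 956 and 705 CPM, a log2 ratio of 0.44 (0.27 to 0.61), and the squalene and sterol arm at 2208 and 2185 CPM, a ratio of 0.01 (-0.09 to 0.12). The myeloid list was at 93.9 and 1598 CPM in these astrocytes.

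At 28 dpi the order of the diets depended on the myeloid-rich cells. Over the whole cluster the 31 genes were at 5456 CPM under PLX5622 and 3398 CPM under vehicle, a log2 ratio of 0.68 against a median of 0.45 over all genes. Of 15 tested members 5 were at least 2-fold higher and 0 at least 2-fold lower, against 25.3% higher and 12.2% lower among all genes. With TMM scaling 1 was higher, and the share of all genes with TMM is not given. The highest were Srebf1 with 1.64 (1.02 to 2.26), Fads1 with 1.48 (0.88 to 2.09) and Dhcr7 with 1.10 (0.23 to 1.96), and the lowest Idi1 with -0.26 (-1.38 to 0.75), Cyp51, lanosterol demethylase, with -0.10 (-1.13 to 0.84) and Sqle with 0.21 (-0.96 to 1.28). In cells with under 3 myeloid UMIs the sum had a log2 ratio of -0.26 (-0.40 to -0.12). There the cholesterol genes were at 1545 and 1585 CPM, a ratio of -0.04 (-0.31 to 0.24), and the fatty acid genes at 3470 and 4645 CPM, a ratio of -0.42 (-0.59 to -0.25). Scd2 was at 2290 and 3294 CPM in these cells, and Srebf1 at 331 and 197 CPM, with a ratio of 0.75 (0.04 to 1.48).

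In microglia the list was low in every library, and within it fatty acid genes took a larger share in injured cords. Scd2 was at 32.0 CPM (24.8 to 40.6) in vehicle sham, 68.3 CPM (62.2 to 74.8) at 7 dpi and 75.8 CPM (69.9 to 82.1) at 28 dpi. Acaca was at 2.86 CPM on 6 UMIs in sham, 15.1 CPM at 7 dpi and 21.3 CPM at 28 dpi. Fasn was at 4.29 CPM on 9 UMIs in sham, 10.2 CPM at 7 dpi and 9.21 CPM at 28 dpi.
Acaca, Fasn and Scd2 were higher in both injured libraries, with log2 ratios at 7 dpi of 1.10 (0.72 to 1.49) for Scd2, 2.40 (1.23 to 3.88) for Acaca and 1.25 (0.24 to 2.44) for Fasn. At 28 dpi these were 1.25 (0.88 to 1.63), 2.90 (1.74 to 4.36) and 1.10 (0.10 to 2.29). Several sterol genes were lower in CPM, though near the median of all genes at 7 dpi. At 28 dpi Msmo1 and Ebp were also near it, with log2 ratios of -0.55 and -0.58 against a median of -0.48. Msmo1 was at 40.6, 23.0 and 27.7 CPM in sham, 7 dpi and 28 dpi, and Ebp, the most abundant member in microglia, at 118, 70.1 and 79.3 CPM. Pmvk was the other way, at 16.7, 20.9 and 25.5 CPM, with a log2 ratio of 0.61 (0.09 to 1.17) at 28 dpi.

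At 7 dpi over sham, 3 of 20 tested members were at least 2-fold higher in microglia and 5 at least 2-fold lower, against 3.73% higher and 26.5% lower among all genes. The lowest were Idi1 with -2.27 (-3.36 to -1.23), Acat2, which joins acetyl-CoA units at the start of the pathway, with -1.97 (-3.10 to -0.86), and Fads1 with -1.40 (-1.85 to -0.95). The median over all genes was -0.61 with CPM and 0.02 with TMM. The 31 genes together were at 411 and 506 CPM, a log2 ratio of -0.30 (-0.40 to -0.20), which turned to 0.33 with TMM and 0.35 with DESeq2's factors, and with either factor 3 members were higher and 2 lower. At 28 dpi, 3 of 21 tested members were higher and 2 lower, against 3.44% higher and 16% lower among all genes. The lowest were Acat2 with -2.42 (-3.62 to -1.27), Idi1 with -1.22 (-2.05 to -0.37) and Insig1 with -0.79 (-1.47 to -0.08). With TMM 5 were higher and 1 lower, and the log2 ratio of the sum went from -0.09 (-0.19 to 0.01) to 0.41, with a median over all genes of -0.48 by CPM. At both times the shares of all genes are by CPM, and those with TMM or DESeq2's factors are not given.

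RNA of other cells in microglia moved with these levels in part. The 6 astrocyte markers summed to 194 CPM in sham microglia, 89.9 CPM at 7 dpi and 133 CPM at 28 dpi, and a list of myelin genes to 124, 80.6 and 75.2 CPM. Astrocytes of vehicle sham held 0.0981 cholesterol gene UMIs for each astrocyte marker UMI, and microglia of that library held 1.63. Their part in the lower sterol genes was not tested.

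MDMs, the blood-borne macrophages, had several lower sterol genes in injured cords. Fdps was at 50.1 CPM (39.1 to 63.1) in vehicle sham, 11.02 CPM (9.61 to 12.6) at 7 dpi and 14.9 CPM (12.96 to 17.1) at 28 dpi. Sqle was at 18.3, 1.01 and 2.38 CPM, Cyp51 at 34.6, 6.64 and 12.3 CPM, and Insig1 at 29.6, 6.44 and 9.02 CPM. Scd2 was at 55.7 CPM (44.1 to 69.4), 99.3 CPM (94.9 to 104) and 110.0 CPM (105 to 116), higher in both injured libraries. The 11 genes of the squalene and sterol arm summed to 274 CPM in sham, 117 CPM at 7 dpi and 148 CPM at 28 dpi.

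At 7 dpi over sham, 10 of 20 tested members were at least 2-fold lower in MDMs and 0 at least 2-fold higher, against 12.6% lower and 3.25% higher among all genes. The lowest were Sqle with -4.19 (-5.10 to -3.29), Idi1 with -3.00 (-3.83 to -2.13) and Cyp51 with -2.38 (-2.86 to -1.87), and the highest Scd2 with 0.83 (0.51 to 1.18), Elovl5 with 0.51 (-0.10 to 1.20) and Acaca with 0.02 (-0.67 to 0.79). At 28 dpi, 10 of 20 were at least 2-fold lower and 1 at least 2-fold higher, against 7.32% lower and 1.16% higher among all genes. The lowest were Sqle with -2.95 (-3.73 to -2.15), Idi1 with -2.29 (-3.10 to -1.44) and Fdps with -1.75 (-2.14 to -1.34), and the highest Acaca with 1.37 (0.70 to 2.14), Scd2 with 0.98 (0.66 to 1.33) and Elovl5 with 0.78 (0.16 to 1.47). Medians over all genes were -0.28 and -0.27. With TMM, 6 members were lower and 1 higher at 7 dpi, and 6 lower and 3 higher at 28 dpi. The shares of all genes above are by CPM, and those with TMM are not given.

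The sham MDMs were a mixed reference. Of the 185 cells, 32 held over 3000 genes, a limit that the methods state as a filter, with a median of 17126.5 UMIs and Gpnmb, an MDM marker, at 6219 CPM. The other 153 held Gpnmb at 187 CPM, against 7337 CPM at 7 dpi and 2561 CPM at 28 dpi in cells of up to 3000 genes, so most sham cells of this cluster lacked a high level of this marker. In the 153 cells, Fdps was at 30.7 CPM and Sqle at 13.01 CPM, and in the 32 cells at 78.6 and 26.2 CPM. Both parts had a high cholesterol share, 67.1% (62.6 to 71.3) and 68.6% (63.9 to 73.1), while injured MDMs of up to 3000 genes had 45.7% (44.5 to 46.9) and 45.8% (44.6 to 47.0) at the earlier and later time. With all libraries held to 200 to 3000 genes, 7 members were lower at 7 dpi and 3 at 28 dpi. The share of all genes at this limit is not given, and fewer cells leave fewer members tested. The 6 astrocyte markers summed to 86.7, 35.6 and 65.6 CPM in MDMs of sham, 7 dpi and 28 dpi, the myelin genes to 82.5, 74.9 and 63.9 CPM, and their part was not tested.

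**Figure D5:**
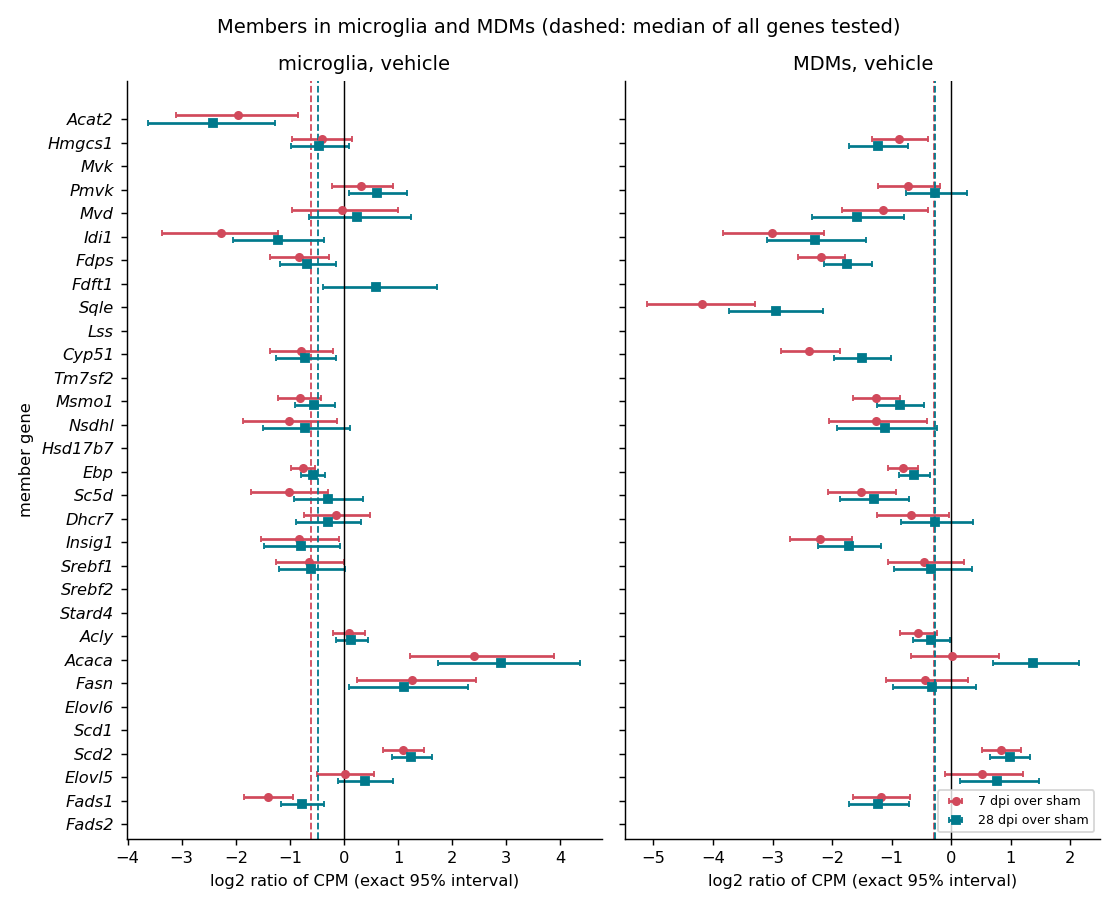
Log2 ratio of CPM over vehicle sham for the members that passed the filter (vertical axis) in microglia (left) and MDMs (right) of vehicle libraries at 7 dpi (red circles) and 28 dpi (blue squares), with exact 95% intervals as bars and the median of all tested genes as a dashed line. Acaca, Fasn and Scd2 lie right of 0 in microglia, and Idi1, Sqle and Cyp51 are among the members farthest left in MDMs.

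In the myeloid cells that remained under PLX5622, the list as a whole was near the vehicle level. In MDMs at 7 dpi, 100 cells of the PLX5622 library and 3023 of the vehicle library, the 31 genes were at 420 and 405 CPM, a log2 ratio of 0.05 (-0.06 to 0.16). Of 17 tested members 2 were at least 2-fold higher and 0 lower, against 2.29% higher and 1.29% lower among all genes. They were Insig1, at 14.9 and 6.44 CPM with a ratio of 1.21 (0.54 to 1.83), and Sc5d, at 18.3 and 8.15 CPM with a ratio of 1.17 (0.57 to 1.72), and Fdps followed with 0.59 (-0.02 to 1.16). The lowest were Fasn with -0.79 (-1.82 to 0.07), Scd2 with -0.57 (-0.85 to -0.30) and Cyp51 with -0.37 (-1.53 to 0.60). PLX5622 MDMs had a median of 15945 UMIs and vehicle MDMs 5777, and in cells of 200 to 3000 genes 0 members were higher. Only 46 of the PLX5622 cells were within that limit, and the share of all genes in them is not given.

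In MDMs at 28 dpi, 161 and 3313 cells, the 31 genes were at 464 and 491 CPM, a log2 ratio of -0.08 (-0.20 to 0.04). Of 16 tested members 0 were at least 2-fold higher and 1 lower, against 3.26% higher and 1.49% lower among all genes. The lower one was Acaca, at 14.8 and 32.9 CPM with a ratio of -1.16 (-1.90 to -0.50), followed by Acly with -0.44 (-0.88 to -0.04) and Pmvk with -0.41 (-1.13 to 0.23). The highest were Hmgcs1 with 0.56 (-0.11 to 1.17), Fasn with 0.46 (-0.28 to 1.11) and Insig1 with 0.37 (-0.51 to 1.15).

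Microglia that remained at 28 dpi under PLX5622, 126 against 3974 cells, had the 31 genes at 458 and 476 CPM, a log2 ratio of -0.05 (-0.27 to 0.15). Of only 5 tested members, Msmo1, Pmvk, Ebp, Acly and Scd2, 0 were 2-fold higher or lower, against 2.01% higher and 1.78% lower among all genes. Their ratios ran from -0.33 (-0.95 to 0.24) for Scd2 to 0.33 (-0.53 to 1.08) for Msmo1, intervals that hold 0 and reach about 2-fold at their ends.

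In endothelial cells the list was lower at 7 dpi, with 570 CPM against 822 CPM in vehicle sham, a log2 ratio of -0.53 (-0.73 to -0.32) and a median over all genes of -0.20. Of 8 tested members 0 were at least 2-fold higher and 2 lower, against 4.28% higher and 6.47% lower among all genes. They were Fdps, at 19.7 and 51.8 CPM with a ratio of -1.39 (-2.33 to -0.41), and Elovl5, at 54.3 and 110.0 CPM with -1.02 (-1.62 to -0.39). Msmo1 was at -0.88 (-1.81 to 0.13). The highest were Scd2 with 0.58 (-0.12 to 1.35), Acly with -0.20 (-0.94 to 0.61) and Pmvk with -0.29 (-1.23 to 0.76). Stard4, which was highest in this cluster, was at 64.7 CPM in vehicle sham, 36.0 CPM at 7 dpi and 23.7 CPM at 28 dpi, and at 66.3, 60.2 and 38.7 CPM under PLX5622. The myeloid list was at 1449 CPM in sham and 8935 CPM at 7 dpi in these cells, and in cells with under 3 myeloid UMIs 0 members were past 2-fold. These were 72 of 82 cells in sham and 161 of 351 at 7 dpi, which leaves fewer members tested, and the share of all genes in them is not given.

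Ependymal cells were led by Scd2 in all 6 libraries. Scd2 was at 799, 683 and 645 CPM in vehicle sham, 7 dpi and 28 dpi, and at 610, 740 and 776 CPM under PLX5622. Srebf1 was at 129.3, 150.0 and 127 CPM, and at 183, 224 and 192 CPM under PLX5622. Sqle was at 112, 55.3 and 65.0 CPM, and at 97.1, 86.0 and 88.5 CPM under PLX5622, and was the highest cholesterol gene of this cluster in each library except vehicle 7 dpi, where Ebp was at 62.6 CPM. Sqle in vehicle sham (81.1 to 150) lay apart from 7 dpi (39.2 to 75.9).

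Genes of related steps gave the following beside the members. In vehicle astrocytes, 4 genes tied to LXR or cholesterol efflux were tested at 28 dpi over sham. Of these 3, Abca1, Abcg1 and Mylip, were at least 2-fold higher and 0 lower, against 12.3% and 15.7% of all genes. Abca1, which exports cholesterol, was at 133, 648 and 384 CPM in sham, 7 dpi and 28 dpi. Mylip was at 11.5 CPM in sham and 89.3 CPM at 28 dpi. Abcg1, another exporter, had 0 UMIs in sham astrocytes and 84.5 CPM at 28 dpi, at least 21.97-fold higher against a floor of 3 UMIs in the sham cluster. Of 8 tested other fatty acid genes 4 were lower and 0 higher, against the same 15.7% and 12.3%, among them Me1, malic enzyme, at 112 and 36.2 CPM. Myeloid cells also make both exporters and Mylip, which was at 202 CPM in vehicle sham microglia. In PLX5622 astrocytes Abcg1 had 1 UMI at 28 dpi, and Mylip had 6 UMIs in sham and 0 at 28 dpi. Abca1 was at 108 CPM in sham and 416 CPM at 28 dpi there, a log2 ratio of 1.95 (1.42 to 2.48). Scap, the escort protein of the SREBPs, was at 65.4 CPM in vehicle sham astrocytes and 16.9 CPM at 28 dpi on 7 UMIs, a ratio of -1.95 (-3.34 to -0.81) that turned to 0.13 in cells thinned to 1000 UMIs, and at 51.2 and 92.4 CPM under PLX5622.

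In microglia, Ch25h, which makes 25-hydroxycholesterol, an oxysterol that holds back SREBPs, had 2 UMIs in vehicle sham (0.954 CPM), 496 at 7 dpi (73.5 CPM) and 949 at 28 dpi (120 CPM), log2 ratios of 6.27 (4.41 to 9.32) and 6.97 (5.11 to 10.02). Abcg1 was at 58.7, 148 and 151 CPM, ratios of 1.34 (1.06 to 1.62) and 1.37 (1.10 to 1.65). Scap was at 27.7 and 9.33 CPM at 7 dpi, a ratio of -1.57 (-2.11 to -1.03). Of 4 tested SREBP processing genes 0 were higher and 2, Scap and Insig2, lower at 7 dpi, against 26.5% lower and 3.73% higher among all genes. The TMM shift of 0.63 brings both within 2-fold.
In MDMs the order was another. Ch25h was at 271, 79.1 and 244 CPM in vehicle sham, 7 dpi and 28 dpi, and at 25.2 and 132 CPM in PLX5622 MDMs at 7 and 28 dpi. Soat1, which stores cholesterol as esters, was at 195, 360 and 297 CPM in vehicle MDMs. At 28 dpi it was at 399 CPM under PLX5622, a log2 ratio over vehicle of 0.43 (0.29 to 0.56).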

How the data were processed

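Single-cell libraries were made by the 10x 3′ method, and the authors aligned reads with Cell Ranger to GRCm38 (mm10), filtered and clustered cells with Seurat and deposited raw counts of UMIs per gene and cell (matrix header version 3.0.2) with a cluster number per cell. The submitters' notes also list STAR 2.4.0 and HTSeq 0.6.1. Counts were taken as deposited. The methods state 200 to 3000 genes per cell, while 716 cells exceeded 3000 and 1 had 199, and these cells and any doublets were kept, with no doublet caller run. The raw matrices held 21270 barcodes, of which 254 were not in the table, and 0 of the values compared for members differed.

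For each cluster and library, the UMIs of its cells were added up and divided by their total, with exact Poisson, conditional binomial and Clopper-Pearson 95% intervals. A gene was tested when the mean of both CPM and the smaller total gave at least 10 UMIs, 3 counts stood in where a library had none, and a member was counted as higher or lower at a log2 ratio of at least 1 or at most -1, without a test. Genes named are the 6 most abundant members, the 3 highest and 3 lowest tested members per comparison, the most abundant of each list, the member of the largest gap between clusters, and up to 4 related genes per comparison. Members and lists were chosen with earlier results of these data known. The 3 astrocyte comparisons at 7 dpi and with PLX5622 at 28 dpi, the limit of 200 to 3000 genes and the split of MDMs were added after seeing the data, and other genes are named for context.

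Upstream windows were searched in RefSeq sequence of GRCm38.p6. Intervals came from scipy 1.17.1 on Python 3.11.15, tables from pandas 2.3.3 with numpy 2.4.6, figures from matplotlib 3.10.9, and scaling factors alone from DESeq2 1.42.0 and edgeR 4.0.16 under R 4.3.3. The ratio and interval steps were tested on simulated counts. Alternatives were other scaling factors, filters of 3 or 30 UMIs, thinning to 1000 UMIs, cells of at least 500 genes, and leaving out the 5% of cells with most UMIs.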

Additional observations from a re-analysis of the deposited data

Results flagged for a closer look

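Fasn differed in direction between astrocytes and microglia of vehicle libraries at 7 dpi over sham. Its log2 ratio was 1.25 in microglia and -1.47 in astrocytes, a gap of 2.72, and the difference was not tested. The sham microglia held 9 UMIs of Fasn. The astrocyte ratio also moves with myeloid-rich cells, since Fasn was at 140 CPM in vehicle sham and 144 CPM at 7 dpi in astrocytes with under 3 myeloid UMIs. At 7 dpi these were 29 cells with 245 UMIs of all 9 fatty acid genes, so the 144 CPM rest on few UMIs.

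The 254 barcodes left out of the count table held 21 UMIs of the 31 genes among 153932, 136 CPM (84.4 to 209). This was above the 19.5 CPM that a count of 3 would give. It could not be told apart from the neutrophils (186 to 305) and erythroid cells (166 to 335) of the vehicle sham library and lay below its 7 other larger clusters. Of the 254 barcodes, 121 came from that library and 102 from PLX5622 sham.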

How the results depend on the processing

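Leaving out a replicate was not possible with 1 library per condition. No paired analysis was possible because each condition is 1 pooled library and no test was run. The limit of 200 to 3000 genes and the astrocyte comparisons at 7 dpi, within PLX5622 and between diets at 28 dpi were chosen after seeing the data. Thinning, the filter of 30 UMIs and leaving out cells leave fewer members tested by construction, and the cause of other shifts was not tested. Counts of members under the alternatives below are given without the share of all genes, so they cannot be set against it.

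The log2 ratio of the 31 genes summed moved as follows. In microglia at 7 dpi over sham it turned from -0.30 to 0.35 with DESeq2's factors and 0.33 with TMM, and was -0.47 without Scd2. In microglia at 28 dpi (-0.09) it was 0.40 with DESeq2's factors, 0.41 with TMM, -0.20 thinned and -0.25 without Scd2, and in microglia of PLX5622 over vehicle (-0.05) 0.26 thinned. In MDMs at 7 dpi (-0.75) it was -0.40 with DESeq2's factors, -0.39 with TMM, -0.60 in cells of 200 to 3000 genes, -0.62 as a mean over cells, -1.03 without Scd2 and -0.60 without the 5% of cells with most UMIs. In MDMs at 28 dpi (-0.47) the values were -0.15 with either factor, -0.32 in cells of 200 to 3000 genes, -0.37 thinned or as a mean over cells, -0.72 without Scd2 and -0.34 without the top 5%. For MDMs of PLX5622 over vehicle at 7 dpi (0.05) they were 0.22 in cells of 200 to 3000 genes, 0.26 thinned and 0.20 without Scd2.

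In astrocytes at 28 dpi over sham (-0.75) it turned to 0.17 in cells with under 3 myeloid UMIs, and was -0.55 with DESeq2's factors, -0.56 with TMM, -0.43 thinned, -0.35 as a mean over cells, -1.18 without Scd2 and -0.48 without the top 5%. At 7 dpi (-0.66) it turned to 0.27 in cells with under 3 myeloid UMIs, and was -0.27 thinned, -0.18 as a mean over cells, -1.46 without Scd2 and -0.39 without the top 5%. Under PLX5622 at 28 dpi over sham (-0.20) it was -0.41 with DESeq2's factors, -0.43 with TMM and -0.61 without Scd2. For PLX5622 over vehicle it turned from 0.13 to -0.028 as a mean over cells in sham, and at 28 dpi from 0.68 to -0.26 in cells with under 3 myeloid UMIs, with 0.23 by DESeq2's factors, 0.19 by TMM, 0.41 thinned, 0.17 as a mean over cells and 0.38 without the top 5%.

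Counts of members at least 2-fold higher moved too. In microglia at 7 dpi (3) they were 0 thinned and 1 with the filter of 30, and at 28 dpi (3) 5 with either factor or relative to the median of all genes, 0 thinned and 1 with the filter of 30. In MDMs at 7 dpi (0) they were 1 with either factor, relative to the median, in cells of 200 to 3000 genes and as a mean over cells. In MDMs at 28 dpi (1) they were 3 with either factor or relative to the median and 2 in cells of 200 to 3000 genes, as a mean over cells and without the top 5%. For MDMs of PLX5622 over vehicle they were 0 at 7 dpi (2) in cells of 200 to 3000 genes, thinned and with the filter of 30, and 1 at 28 dpi (0) with the filter of 3. In astrocytes at 28 dpi (0) they were 2 in cells with under 3 myeloid UMIs, and at 7 dpi (0) 2 in those cells and 1 thinned, relative to the median, as a mean over cells and without the top 5%. Under PLX5622 at 28 dpi over sham (0) they were 1 thinned and in cells of at least 500 genes. For PLX5622 over vehicle in sham astrocytes (2) they were 1 with either factor, relative to the median, thinned and in cells with under 3 myeloid UMIs, and 0 with the filter of 30. At 28 dpi (5) they were 2 with DESeq2's factors, thinned, relative to the median and with the filter of 30, 1 with TMM and in cells with under 3 myeloid UMIs, and 3 as a mean over cells and without the top 5%.

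Counts of members at least 2-fold lower were, in microglia at 7 dpi (5), 2 with either factor, relative to the median and in cells of at least 500 genes, 1 thinned and with the filter of 30 and 3 without the top 5%. In microglia at 28 dpi (2) they were 1 with either factor, relative to the median, thinned, in cells of at least 500 genes and without the top 5%, and 0 with the filter of 30. In MDMs at 7 dpi (10) they were 6 with either factor or relative to the median, 1 thinned and 3 with the filter of 30, and at 28 dpi (10) 6 with either factor, 3 in cells of 200 to 3000 genes, 0 thinned and 4 with the filter of 30 or without the top 5%. For MDMs of PLX5622 over vehicle they were 1 at 7 dpi (0) in cells of 200 to 3000 genes and 0 at 28 dpi (1) in those cells or thinned. In astrocytes at 28 dpi (14) they were 7 in cells with under 3 myeloid UMIs and as a mean over cells, 6 thinned and 9 with the filter of 30 or without the top 5%. At 7 dpi (15) they were 1 in cells with under 3 myeloid UMIs and thinned and 2 with the filter of 30. Under PLX5622 at 28 dpi over sham (10) they were 3 thinned, 2 with the filter of 30 and 6 as a mean over cells, and for PLX5622 over vehicle at 28 dpi (0) 1 with the filter of 3 and as a mean over cells. In endothelial cells (2) they were 1 with either factor or relative to the median, 6 with the filter of 3, and 0 thinned, with the filter of 30, without the top 5% and in cells with under 3 myeloid UMIs.

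With totals that leave out ribosomal and hemoglobin genes, the vehicle sham level was 825 CPM in MDMs, 864.5 in T and NK cells, 578 in microglia and 790 in monocytes. Among values of single named genes, 1317 stayed inside the main interval, 249 moved outside it and 2 were counted as turned. These 2 were Scap in astrocytes at 28 dpi, to 0.13 thinned, and Soat1 in endothelial cells at 7 dpi, to -0.049 in cells with under 3 myeloid UMIs. A change of sign was counted as a turn only for a gene at least 2-fold higher or lower in the main result. Smaller ratios that changed sign are within the other counts. The levels of few UMIs limit what thinning and the filter of 30 can show.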

Other observations

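B cells were close to astrocytes for Scd1. Over all libraries Scd1 was at 168.5 CPM (149 to 190) in 653 B cells and 165 CPM (148 to 183) in astrocytes, which could not be told apart. In B cells it was at 409 CPM (276 to 585) in vehicle sham on 30 UMIs of 23 cells, 103 CPM (79.8 to 130) at 7 dpi and 144 CPM (115 to 179) at 28 dpi, with the sham interval above both others. The cholesterol share of B cells was 36.2% (25.0 to 48.7), 44.0% (38.8 to 49.4) and 39.3% (34.0 to 44.8) in the same order.

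Ebp was highest over all libraries in proliferating cells, at 99.2 CPM (90.0 to 109), next to leptomeningeal cells with 92.5 CPM (75.0 to 113). At vehicle 28 dpi, 55 oligodendrocyte lineage cells had the highest level of 14 members and astrocytes of 12. Of the 14, Elovl6 alone had an interval apart from that of the second cluster, at 114 CPM (59.0 to 200) against 31.4 CPM (16.7 to 53.7) in astrocytes.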
